A study of Homo sapiens with 6 samples.

Results

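The 10 genes described here form the core of the circadian clock: CLOCK, ARNTL (now named BMAL1), PER1, PER2, PER3, CRY1, CRY2, NR1D1, NR1D2 and DBP. They were taken by symbol from a table of 20030 genes, and all 10 were found. The table itself places 8 of them in the KEGG circadian rhythm pathway, all but NR1D2 and DBP, and gives 8 of them a Gene Ontology term with the word circadian, all but CRY1 and CRY2. RNA sequencing was made from 6 libraries of T24, a cell line from a human carcinoma of the urinary bladder, 3 of a group labelled NC and 3 of a group labelled sh-circRIMS1. circRIMS1 is a circular RNA of the RIMS1 gene, and the comparison asks how the RNA levels of genes differ between the 2 groups. The labels give no drug, time of harvest, serum shock or other synchronizing treatment and no clone, and do not say what NC stands for. The hairpin's vector and sequence are likewise not given in the sources used here, and the circular RNA itself was not measured here.

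The mammalian clock is a transcriptional feedback loop that runs in nearly every cell, with a period of about a day. CLOCK and BMAL1 bind as a pair to E-box sequences and switch on the PER and CRY genes, whose proteins return to the nucleus and inhibit that pair. NR1D1 and NR1D2, also called REV-ERB alpha and beta, are switched on by the same pair and repress the BMAL1 gene, while DBP carries the rhythm to further genes through D-box sequences. In a dish, cells of a line drift apart in phase unless they are synchronized, so a bulk level is an average over cells. In such averages a change in every cell and a change in the share of cells at a given phase cannot be told apart.

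Values are FPKM, a fragment count scaled by transcript length and by sequencing depth, so levels of different genes are compared per length. The labels' protocols include RNase R, which degrades linear RNA, and whether transcripts of different genes were left in equal proportion was not tested, so the order of levels below describes these libraries. Whether digestion differed between libraries, and what share of a gene's FPKM came from circular RNA, was not tested either. The rises and falls below are thus changes of FPKM in digested libraries. Absolute depth is unknown, and steps between low values placed the depth of the libraries between 1 and 1.17 times that of NC replicate 1. Only a preset window around equal depth was searched, so a larger difference could not have been returned. In the other libraries 41.7% to 61.5% of the ratios kept lay close to the depth chosen. The 3 NC libraries correlated with each other at a Pearson's r of 0.997 across genes, as did sh-circRIMS1 replicates 1 and 3, whereas sh-circRIMS1 replicate 2 stood apart from them at 0.974 and 0.975. The change of each tested clock gene is therefore also given without replicate 2. The epithelial keratin genes KRT7 and KRT18 were abundant, with 436 and 516 FPKM in NC, while the urothelial differentiation genes UPK1B and UPK3A were listed at 0 in all libraries and the urothelial factor GATA3 measured at most 0.0959 FPKM. The epithelial genes KRT19, CDH1 and EPCAM measured at most 0.106, 0.0971 and 0.919 FPKM in any library. The 12 epithelial and urothelial markers summed to 1243 to 1287 FPKM in NC and to 957, 705 and 957 FPKM in sh-circRIMS1 replicates 1, 2 and 3. The 6 leukocyte markers summed to 4.97 to 6.08 FPKM in NC and 16.9 to 23.7 FPKM in sh-circRIMS1, mostly from CD68, with CD3E listed at 0. The 6 fibroblast markers summed to 0.123 to 0.160 FPKM in NC and 0.665 to 0.854 FPKM in sh-circRIMS1, mostly from COL1A1, with DCN listed at 0. The 5 endothelial markers summed to 15.3 to 16.6 FPKM and 15.4 to 20.6 FPKM, mostly from CDH5. Within that sum CDH5 averaged 15.4 FPKM in NC and 13.7 FPKM in sh-circRIMS1, while TIE1 averaged 0.133 and 2.70 FPKM. The part of these markers in the results below was not tested.

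In the sh-circRIMS1 cells NR1D1, DBP, CRY2 and ARNTL rose, and CRY1 fell. The 3 PER genes, CLOCK and NR1D2 did not pass the test over all 6 libraries, PER3 because it lay below the filter of a mean FPKM of at least 1. Of the 9 tested clock genes 4 were called higher and 1 lower by limma at an adjusted p under 0.05. Over all 10408 tested genes 25% were called higher and 12.7% lower, so the count of clock genes is to be read against a background in which 37.7% of genes passed. The median change of the 9 was 0.13 on the log2 scale, against 0.06 over all tested genes. The groups did not overlap for 6 of the 10 clock genes, against 57.5% of all tested genes.

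**Figure D1:**
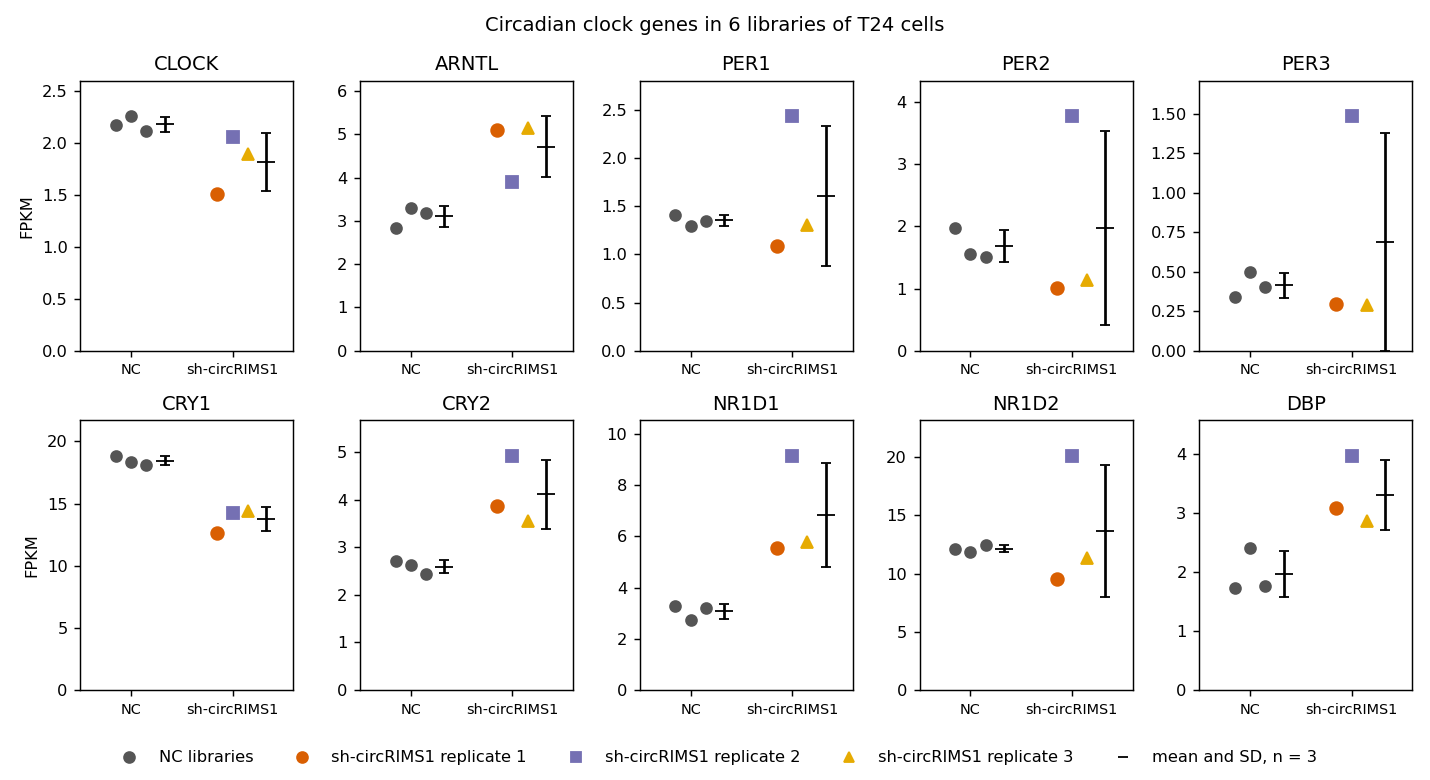
FPKM of the 10 clock genes (vertical axes, each starting at 0) in the 3 NC libraries (grey circles) and the 3 sh-circRIMS1 libraries (circle, square and triangle for replicates 1, 2 and 3), with the mean and SD of each group. NR1D1, DBP, CRY2 and ARNTL lie higher in all 3 sh-circRIMS1 libraries and CRY1 lower, while PER1, PER2, PER3 and NR1D2 are high in replicate 2 alone.

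In NC the most abundant clock gene was CRY1 at 18.5 ± 0.375 FPKM (SD, n = 3), followed by NR1D2 at 12.1 ± 0.312 FPKM (SD, n = 3). ARNTL and NR1D1 came next at 3.10 ± 0.235 and 3.07 ± 0.302 FPKM (SD, n = 3), with ranges that overlapped. CRY2 at 2.60 ± 0.146 FPKM lay below both, and CLOCK at 2.18 ± 0.0734 FPKM and DBP at 1.97 ± 0.382 FPKM overlapped each other (SD, n = 3). PER2, PER1 and PER3 were the 3 lowest at 1.68 ± 0.259, 1.35 ± 0.0602 and 0.414 ± 0.0784 FPKM (SD, n = 3), and PER2 overlapped DBP but not PER1. In sh-circRIMS1 the order of the means was CRY1, NR1D2, NR1D1, ARNTL, CRY2, DBP, PER2, CLOCK, PER1 and PER3. There all neighbours in that order overlapped except NR1D2 with NR1D1 and NR1D1 with ARNTL. Without replicate 2 the mean of PER2 was 1.07 FPKM, below those of CLOCK at 1.70 FPKM and PER1 at 1.19 FPKM, and the order of the others was unaltered.

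Of the activators ARNTL rose, and CLOCK did not pass the test. ARNTL, the DNA-binding partner of CLOCK, measured 2.84, 3.29 and 3.17 FPKM in NC and 5.09, 3.90 and 5.15 FPKM in sh-circRIMS1 replicates 1, 2 and 3. All 3 sh-circRIMS1 libraries lay above the NC libraries, and replicate 2 lay closest to them. The group mean was 152% of that in NC, with a log2 change of 0.53 (SE 0.12, 95% interval from 0.25 to 0.80, limma adjusted p = 0.0129). Without NC replicate 1 the call was lost (limma adjusted p = 0.0573), and under quantile normalization as well (limma adjusted p = 0.115). Without sh-circRIMS1 replicate 2 the change was 0.64 (limma adjusted p = 6.1e-05).

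CLOCK, which also carries histone acetyltransferase activity, measured 2.17, 2.25 and 2.11 FPKM in NC and 1.50, 2.05 and 1.89 FPKM in sh-circRIMS1. All sh-circRIMS1 values lay below the NC values, with replicate 2 close under them. The log2 change of -0.22 (SE 0.11, 95% interval from -0.47 to 0.04) did not pass the test (limma adjusted p = 0.155). CLOCK was called lower without replicate 2 (log2 change -0.29, limma adjusted p = 0.0215) and under median-of-ratios scaling (-0.32, limma adjusted p = 0.0405), quantile normalization (-0.54, limma adjusted p = 0.00629) and array weights (-0.25, limma adjusted p = 0.0233). The ratio of ARNTL to CLOCK FPKM was 1.31, 1.46 and 1.51 in NC and 3.38, 1.90 and 2.73 in sh-circRIMS1. Every sh-circRIMS1 library thus had a higher ratio than any NC library.

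The cryptochromes, which give the clock its strongest repression of the CLOCK and BMAL1 pair, moved in opposite directions. CRY1 measured 18.9, 18.4 and 18.1 FPKM in NC and 12.7, 14.3 and 14.4 FPKM in sh-circRIMS1. The groups did not overlap, and replicate 2 lay between the other sh-circRIMS1 libraries. CRY1 fell to 74.6% of its NC mean, a log2 change of -0.41 (SE 0.07, 95% interval from -0.57 to -0.25, limma adjusted p = 0.00409), and was called lower in all 16 alternative fits. Without replicate 2 the change was -0.44 (limma adjusted p = 0.000128).

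CRY2 measured 2.72, 2.64 and 2.44 FPKM in NC and 3.88, 4.93 and 3.55 FPKM in sh-circRIMS1. All sh-circRIMS1 libraries were higher, replicate 2 most. CRY2 rose to 159% of its NC mean, a log2 change of 0.57 (SE 0.12, 95% interval from 0.28 to 0.85, limma adjusted p = 0.0111). The change was 0.44 without replicate 2 (limma adjusted p = 0.000746), and the call was lost without NC replicate 3 (limma adjusted p = 0.0510). CRY2 made up 12.6%, 12.6% and 11.8% of the summed CRY FPKM in NC and 23.4%, 25.7% and 19.8% in sh-circRIMS1. CRY1 remained the more abundant of the pair in every library, at 6.94 to 7.44 times CRY2 in NC and 2.89 to 4.05 times in sh-circRIMS1.

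**Figure D2:**
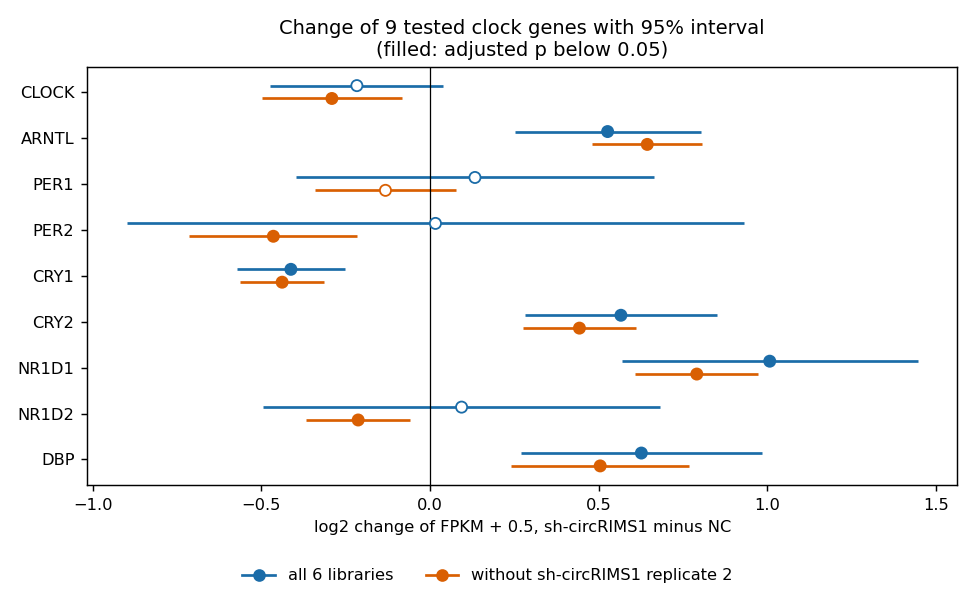
Log2 change of FPKM + 0.5 (horizontal axis, sh-circRIMS1 minus NC) with its 95% interval for the 9 tested clock genes, over all 6 libraries (blue) and without sh-circRIMS1 replicate 2 (orange), filled where the adjusted p was below 0.05. The changes of NR1D1, DBP, CRY2, ARNTL and CRY1 keep their side of 0, while PER1, PER2 and NR1D2 cross it and the interval of PER2 narrows from -0.90 to 0.93 down to -0.71 to -0.22.

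NR1D1 had the largest change of the tested clock genes, both over all libraries and without replicate 2. NR1D1, a heme-binding nuclear receptor that acts as a transcriptional repressor, measured 3.29, 2.73 and 3.20 FPKM in NC and 5.53, 9.16 and 5.80 FPKM in sh-circRIMS1. The groups did not overlap, and replicate 2 was by far the highest. NR1D1 rose to 222% of its NC mean, a log2 change of 1.01 (SE 0.18, 95% interval from 0.57 to 1.45, limma adjusted p = 0.00657). Without replicate 2 the change was 0.79 (limma adjusted p = 3.3e-05), and NR1D1 was called higher in all 15 alternative fits that tested it.

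The genes whose levels followed NR1D1 most closely over the 6 libraries included GSTZ1 and GPRC5B, with a Pearson's r of 0.999 and 0.998. GSTZ1 encodes a glutathione transferase and GPRC5B a G protein-coupled receptor. GSTZ1 measured 0.588 to 0.777 FPKM in NC and 1.37 to 2.46 FPKM in sh-circRIMS1, so it passed the filter only through its sh-circRIMS1 values. In all, 89 tested genes reached an r of 0.99 with NR1D1, over 6 libraries that share a group difference and a deviating library.

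DBP, a PAR bZIP factor that activates D-box genes, measured 1.73, 2.41 and 1.76 FPKM in NC and 3.08, 3.97 and 2.87 FPKM in sh-circRIMS1. All sh-circRIMS1 libraries were higher than all NC libraries. DBP rose to 168% of its NC mean, a log2 change of 0.63 (SE 0.15, 95% interval from 0.27 to 0.98, limma adjusted p = 0.0179). Without replicate 2 the change was 0.50 (limma adjusted p = 0.00478), and the call was lost without NC replicate 1 or 3 (limma adjusted p = 0.0718 and 0.0720) and under quantile normalization (limma adjusted p = 0.0797).

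NR1D2, the paralog of NR1D1, measured 12.1, 11.8 and 12.5 FPKM in NC and 9.54, 20.1 and 11.3 FPKM in sh-circRIMS1. Replicates 1 and 3 lay below all NC libraries and replicate 2 above them. Over all libraries the log2 change was 0.09 (95% interval from -0.49 to 0.68, limma adjusted p = 0.784), and without replicate 2 NR1D2 was called lower at -0.21 (limma adjusted p = 0.0231). NR1D1 made up 21.3%, 18.7% and 20.4% of the summed NR1D FPKM in NC and 36.7%, 31.3% and 33.8% in sh-circRIMS1. The share of NR1D1 was thus higher in each sh-circRIMS1 library, replicate 2 included.

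The PER genes, whose proteins join the CRY proteins in the repressive complex, differed between the sh-circRIMS1 libraries. PER2 measured 1.98, 1.56 and 1.50 FPKM in NC and 1.01, 3.77 and 1.14 FPKM in sh-circRIMS1. Replicates 1 and 3 lay below every NC library, and replicate 2 was the highest of the 6. The log2 change over all libraries was 0.02 (95% interval from -0.90 to 0.93, limma adjusted p = 0.977). Without replicate 2 PER2 was called lower, at -0.46 (95% interval from -0.71 to -0.22, limma adjusted p = 0.00538). It was also called lower with array weights (-0.40, limma adjusted p = 0.0205). Such weights can count a deviating library less, so that call is not separate support.

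PER3 measured 0.341, 0.497 and 0.404 FPKM in NC and 0.297, 1.48 and 0.286 FPKM in sh-circRIMS1. It showed the same arrangement as PER2, replicates 1 and 3 below NC and replicate 2 above. The log2 difference was 0.24 with an exact permutation p of 1, and without replicate 2 it was -0.20 with an exact permutation p of 0.2. Neither test could go below 0.1.

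PER1, which also responds directly to glucocorticoid and cAMP signals, measured 1.41, 1.29 and 1.35 FPKM in NC and 1.09, 2.43 and 1.30 FPKM in sh-circRIMS1. Replicate 2 was again the highest, replicate 1 the lowest, and replicate 3 lay within the NC range. The log2 change was 0.13 (95% interval from -0.40 to 0.66, limma adjusted p = 0.659), and -0.13 without replicate 2 (limma adjusted p = 0.242). The summed FPKM of the 3 PER genes ran from 3.25 to 3.73 in NC and was 2.39, 7.69 and 2.73 in sh-circRIMS1 replicates 1, 2 and 3.

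**Figure D3:**
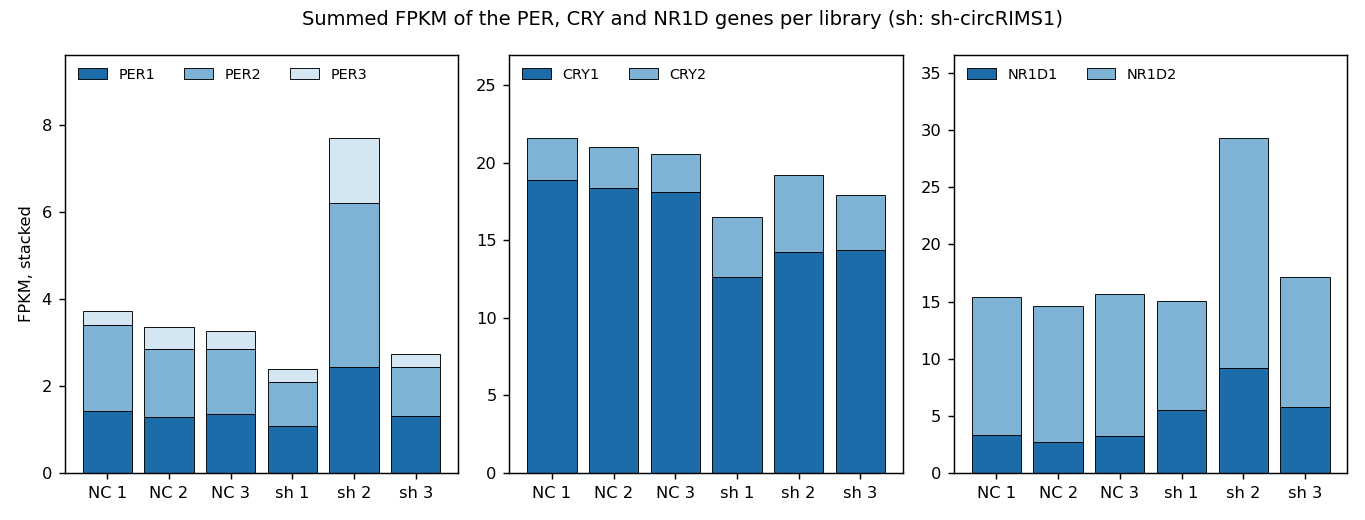
Stacked FPKM (vertical axes from 0) of the PER, CRY and NR1D genes in each of the 6 libraries, with NC replicates on the left and sh-circRIMS1 replicates on the right of each panel. The PER sum is 7.69 in sh-circRIMS1 replicate 2 and at most 3.73 elsewhere, the lower bars of CRY1 are shorter in all 3 sh-circRIMS1 libraries, and those of NR1D1 are taller.

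Without replicate 2, 4 clock genes were called higher and 4 lower, and PER1 was the only tested member not called. Over all genes 36.8% were then called higher and 23.9% lower of 10340 tested. The 4 that rose were NR1D1, ARNTL, DBP and CRY2, and the 4 that fell were PER2, CRY1, CLOCK and NR1D2. The median change of the 9 turned from 0.13 to -0.13.

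Replicate 2 was higher than the mean of replicates 1 and 3 in 9 of the 10 clock genes, all but ARNTL. The difference on the scale of log2(FPKM + 0.5) was 1.44 for PER2, 1.32 for PER3, 0.92 for NR1D2, 0.80 for PER1 and 0.65 for NR1D1. It was 0.37 for both CRY2 and DBP, 0.22 for CLOCK, 0.08 for CRY1 and -0.35 for ARNTL. Among all tested genes 51.4% were higher in replicate 2 in this sense, 7.90% by more than 0.5 and 1.10% by more than 1. Of all tested genes 99.7% had a lower difference than PER2 and 12.7% a lower one than ARNTL. PER2, PER3 and NR1D2 lay above the NC range in replicate 2 and below it in replicates 1 and 3, an arrangement found in 5.56% of tested genes. The 8 interferon-stimulated genes of a further list were all called higher, against 25% of all tested genes. They summed to 2264 and 2301 FPKM in replicates 1 and 3 and to 1020 FPKM in replicate 2, against 186 to 200 FPKM in NC. Most of each sum was ISG15, with 1584, 731 and 1605 FPKM in replicates 1, 2 and 3. IRF9 was not lower in replicate 2, at 37.4, 37.6 and 35.8 FPKM. Both were named after their values were seen. The part of the interferon-stimulated genes in the clock values was not tested.

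**Figure D4:**
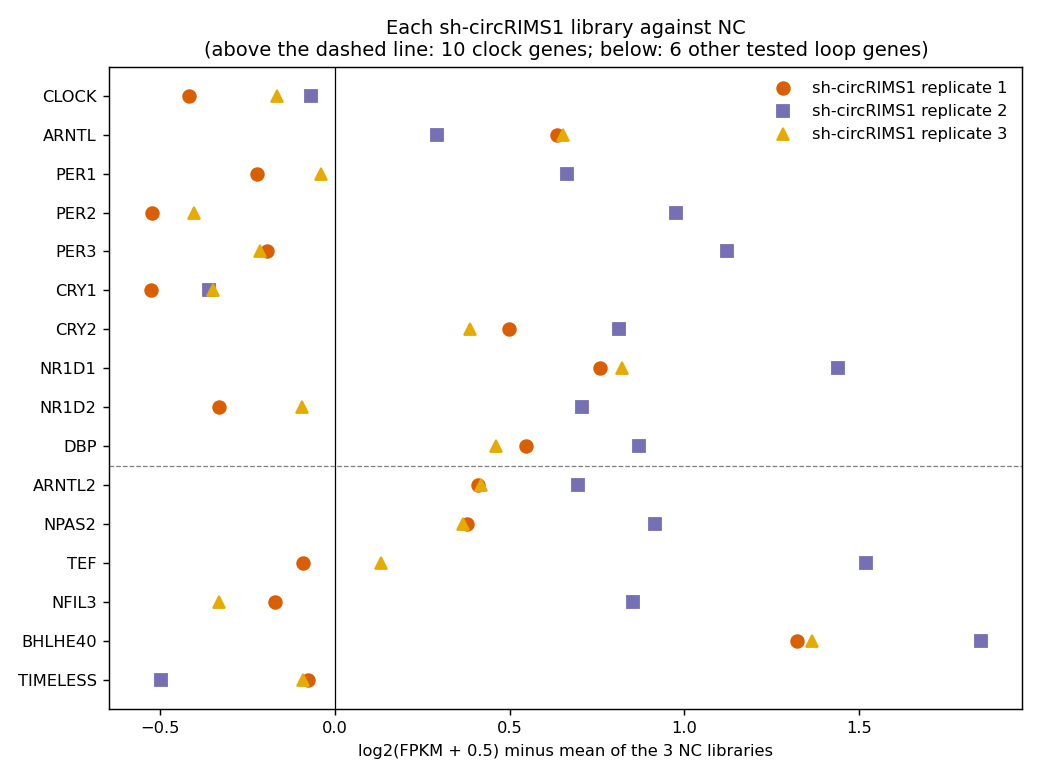
Difference of each sh-circRIMS1 library from the mean of the 3 NC libraries on the scale of log2(FPKM + 0.5) (horizontal axis), for the 10 clock genes and, under the dashed line, 6 other tested genes of the clock loops. Replicate 2 lies right of 0 for PER1, PER2, PER3 and NR1D2, where replicates 1 and 3 lie left of it, and nearest to 0 of the 3 libraries for ARNTL and CLOCK.

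**Figure D5:**
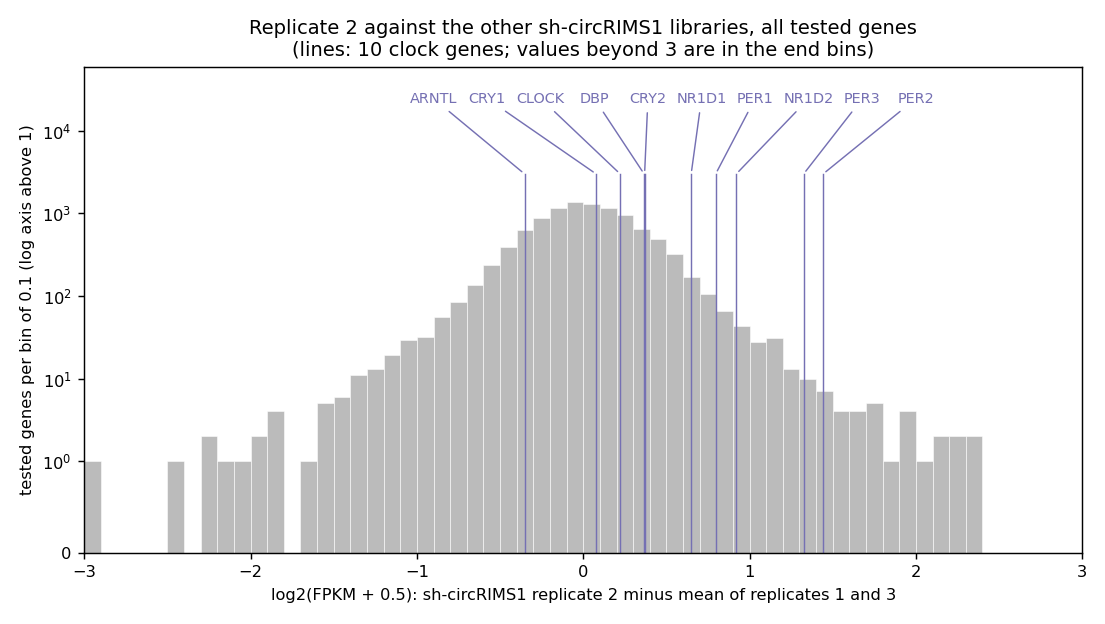
Number of tested genes (vertical axis, log scale above 1) by the difference of sh-circRIMS1 replicate 2 from the mean of replicates 1 and 3 (horizontal axis, log2 of FPKM + 0.5), with the 10 clock genes as lines. PER2 at 1.44 and PER3 at 1.32 lie in the right tail, and ARNTL at -0.35 is the single clock gene below 0.

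The promoters of PER1, PER2, PER3 and NR1D2, the genes that were high in replicate 2 alone, are shown beside that of ARNTL, the gene that lay lower there. They are RefSeq windows on GRCh38.p14, 250 bases before the start and 50 from it on, 5′ to 3′ on the gene's strand. Capitals mark matches to the E-box CACGTG, its variant CACGTT, the D-box TTANGTAA and TAGGTCA, the core of the element bound by NR1D1, NR1D2 and the ROR receptors, each on either strand. The windows are chr17:8152355-8152654 (minus strand) for PER1, chr2:238288561-238288860 (minus strand) for PER2, chr1:7784041-7784340 (plus strand) for PER3, chr3:23945871-23946170 (plus strand) for NR1D2 and chr11:13277540-13277839 (plus strand) for ARNTL.
PER1: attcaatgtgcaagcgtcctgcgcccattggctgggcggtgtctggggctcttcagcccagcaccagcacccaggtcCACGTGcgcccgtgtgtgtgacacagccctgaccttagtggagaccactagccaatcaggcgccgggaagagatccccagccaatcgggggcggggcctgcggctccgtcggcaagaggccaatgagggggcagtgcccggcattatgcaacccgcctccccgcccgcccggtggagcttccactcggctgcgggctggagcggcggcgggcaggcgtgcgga
PER2: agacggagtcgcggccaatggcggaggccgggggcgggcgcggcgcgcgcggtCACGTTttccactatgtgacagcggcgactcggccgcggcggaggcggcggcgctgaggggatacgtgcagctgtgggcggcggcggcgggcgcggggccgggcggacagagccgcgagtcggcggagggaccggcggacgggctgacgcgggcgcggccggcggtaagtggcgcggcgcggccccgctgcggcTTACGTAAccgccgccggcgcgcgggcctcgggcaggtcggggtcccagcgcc
PER3: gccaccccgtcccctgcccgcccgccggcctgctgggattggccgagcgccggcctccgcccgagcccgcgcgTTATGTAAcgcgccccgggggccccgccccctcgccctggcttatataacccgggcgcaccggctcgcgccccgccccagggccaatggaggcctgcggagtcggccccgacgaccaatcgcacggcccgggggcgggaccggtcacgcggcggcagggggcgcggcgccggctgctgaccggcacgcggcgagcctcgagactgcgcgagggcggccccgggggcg
NR1D2: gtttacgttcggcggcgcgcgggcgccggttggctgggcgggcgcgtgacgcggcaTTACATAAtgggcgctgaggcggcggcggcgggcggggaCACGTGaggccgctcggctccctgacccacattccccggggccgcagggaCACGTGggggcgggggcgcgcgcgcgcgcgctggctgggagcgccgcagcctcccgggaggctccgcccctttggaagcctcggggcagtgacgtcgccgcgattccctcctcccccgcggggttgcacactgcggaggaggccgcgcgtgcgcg
ARNTL: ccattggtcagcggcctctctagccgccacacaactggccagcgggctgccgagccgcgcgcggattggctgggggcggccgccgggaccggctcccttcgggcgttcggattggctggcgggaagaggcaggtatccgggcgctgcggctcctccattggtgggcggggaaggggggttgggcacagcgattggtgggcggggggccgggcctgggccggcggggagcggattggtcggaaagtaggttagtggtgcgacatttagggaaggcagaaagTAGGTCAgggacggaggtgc

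A D-box match began 3 bases before the start in PER2 and ran across it. In PER3 and NR1D2 a D-box match began 177 and 194 bases before the start. NR1D2 also held E-boxes at 155 and 105 bases before the start, PER1 an E-box at 173, and PER2 the variant CACGTT at 197. ARNTL held TAGGTCA beginning at base 31 from the start. The other windows of PER3, NR1D2 and ARNTL held none of these motifs and are not shown. All 10 clock genes had a RefSeq promoter entry, 5 of them with 2 entries, which made 15 windows. The D-box was found in 3 of the 15 windows, those of PER2, PER3 and NR1D2, and in 2.18% of all 35116 promoter windows. CACGTG was found in NR1D2 and PER1 and in 7.26% of all windows, and CACGTT in CLOCK, CRY1, CRY2, NR1D1 and PER2 and in 5.34% of all windows. TAGGTCA was found in ARNTL and CRY2 and in 1.85% of all windows. These are matches of letters, and no binding was measured.

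Some clock genes share bases with a neighbour, and no source used here states whether reads were assigned by strand. NR1D1 overlaps THRA by 1075 bases in RefSeq, NR1D2 overlaps NKIRAS1 by 1277, DBP overlaps SPHK2 by 376, and the span of CLOCK overlaps that of TMEM165 by 25495. THRA measured 4.67 FPKM in NC and 5.25 FPKM in sh-circRIMS1 (limma adjusted p = 0.218), and SPHK2 2.71 and 2.72 FPKM (limma adjusted p = 0.976). TMEM165 measured 18.4 and 17.4 FPKM (limma adjusted p = 0.647), but without replicate 2 its mean was 19.8 FPKM and it was called higher (log2 change 0.11, limma adjusted p = 0.0444). NKIRAS1 measured 2.20 and 2.76 FPKM (limma adjusted p = 0.0391). The call of NKIRAS1 was lost without any 1 of the NC replicates or sh-circRIMS1 replicate 1 (limma adjusted p from 0.0861 to 0.134), without a filter, with a replicate block and under median-of-ratios scaling, and its change was -0.0035 under quantile normalization.

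Other genes of the clock loops rose in part. Of 12 listed, 6 were tested, of which 3 were higher and 0 lower (25% and 12.7% over all tested genes), with a median change of 0.51 against 0.06 over all tested genes. BHLHE40, also called DEC1, a repressor that competes for E-boxes, measured 15.4, 15.1 and 14.6 FPKM in NC and 38.4, 55.5 and 39.6 FPKM in sh-circRIMS1 (log2 change 1.51, SE 0.14, limma adjusted p = 0.00048). ARNTL2, a paralog of ARNTL, rose from 7.16 ± 0.309 to 10.4 ± 1.27 FPKM, and NPAS2, a paralog of CLOCK, from 5.34 ± 0.0451 to 8.21 ± 2.00 FPKM (SD, n = 3 each, limma adjusted p = 0.00629 and 0.0270). The ratio of NPAS2 to CLOCK was 2.37 to 2.51 in NC and 3.72 to 5.13 in sh-circRIMS1. The call of NPAS2 was lost without any 1 of the NC replicates (limma adjusted p from 0.0824 to 0.0870) and under quantile normalization (limma adjusted p = 0.0610). Without replicate 2 the changes of BHLHE40, ARNTL2 and NPAS2 were 1.34, 0.41 and 0.37 (log2). In that fit 3 of the 6 tested genes of this list were higher and 1 lower, against 36.8% and 23.9% of all tested genes. The median change of the 6 was then 0.20, against 0.06 over all tested genes. RORA, RORB, HLF, BHLHE41 and CIART were among those below the filter. TEF and NFIL3, named after their values were seen, were high in replicate 2 like the PER genes. TEF, a PAR bZIP factor like DBP, measured 2.58, 8.93 and 3.10 FPKM in sh-circRIMS1 against 2.68 to 2.97 FPKM in NC. NFIL3, a repressor at D-boxes, measured 3.95, 8.56 and 3.49 FPKM in sh-circRIMS1 against 4.26 to 4.90 FPKM in NC. TIMELESS, also named after its values were seen, averaged 9.17 FPKM in NC and 7.86 FPKM in sh-circRIMS1. It lay lower in every sh-circRIMS1 library than in NC but was not called (limma adjusted p = 0.180).

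Among kinases, ubiquitin ligases and related enzymes that act on clock proteins, 2 of 17 tested genes were higher and 4 lower. Over all tested genes the shares were 25% and 12.7%. CSNK1E, a casein kinase that phosphorylates PER proteins, rose from 57.3 ± 0.905 to 77.2 ± 8.68 FPKM (SD, n = 3 each, limma adjusted p = 0.00871). The casein kinase gene CSNK1D of the same list averaged 21.2 FPKM in NC and 22.0 FPKM in sh-circRIMS1 and was not called (limma adjusted p = 0.524). PRKAA2, a catalytic subunit of AMP-activated kinase, rose by 0.68 (log2), and the deubiquitinase USP7 fell by 0.26 (log2). PRKAA2 averaged 0.670 FPKM in NC and 1.39 FPKM in sh-circRIMS1, so it passed the filter only through its sh-circRIMS1 values. PRKAA1, the other catalytic subunit, named after its values were seen, averaged 21.7 FPKM in NC and 18.8 FPKM in sh-circRIMS1. It was called lower (log2 change -0.21, limma adjusted p = 0.0245), also without replicate 2 (-0.23, limma adjusted p = 0.00087). Without replicate 2, 3 of 16 were higher and 7 lower, against 36.8% and 23.9% of all tested genes. The call of USP7 was lost without NC replicate 1 or 2, and that of PRKAA2 under quantile normalization, while PRKAA2 lay below the filter without sh-circRIMS1 replicate 2 or 3. A readthrough transcript, LOC400927-CSNK1E, has a row of its own and was called lower, with 2.80 ± 0.229 FPKM in NC and 2.11 ± 0.301 FPKM in sh-circRIMS1 (SD, n = 3 each, log2 change -0.34, limma adjusted p = 0.0480). Its call was lost without any 1 library other than sh-circRIMS1 replicate 2 (limma adjusted p from 0.0753 to 0.156), without a filter, with a replicate block and after rescaling to TPM. No source used here states how reads shared with CSNK1E were split.

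Of 15 tested coregulators of clock factors 0 were higher and 5 lower, against 25% and 12.7% of all tested genes. SFPQ, an RNA-binding partner of the PER complex, fell from 43.2 ± 1.12 to 29.7 ± 1.69 FPKM (SD, n = 3 each, limma adjusted p = 0.00107). TBL1X, a subunit of the NCOR corepressor complex, fell from 12.8 ± 0.269 to 7.96 ± 1.00 FPKM (SD, n = 3 each, limma adjusted p = 0.00216). The acetyltransferase KAT2B and the histone methylation cofactor WDR5 fell by 0.41 and 0.30 on the log2 scale. Without replicate 2, 1 was higher and 8 were lower, against 36.8% and 23.9% of all tested genes.

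Of 13 genes described as clock outputs 8 were tested, with 4 higher and 0 lower against 25% and 12.7% of all tested genes. Without replicate 2, 6 were higher and 1 lower against 36.8% and 23.9%. CDKN1A, a cyclin-dependent kinase inhibitor, rose from 38.9 ± 0.779 to 82.3 ± 4.17 FPKM (SD, n = 3 each, limma adjusted p = 8.9e-05). NOCT, a rhythmically expressed phosphatase, rose from 2.56 ± 0.366 to 5.06 ± 1.00 FPKM (SD, n = 3 each, limma adjusted p = 0.00501). NAMPT, the rate-limiting enzyme of NAD salvage, measured 94.8, 90.2 and 91.5 FPKM in NC and 122, 251 and 134 FPKM in sh-circRIMS1 (limma adjusted p = 0.0471). Replicate 2 was the highest library for NAMPT as for the PER genes. The log2 change of NAMPT was 0.79, and 0.47 without replicate 2 (limma adjusted p = 1.2e-05). Its call was lost without any 1 of the NC replicates or sh-circRIMS1 replicate 3 (limma adjusted p from 0.0577 to 0.126) and in 6 of the alternatives on the filter, the scaling and the trend.

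Genes that share acute inducers with PER1 changed in both directions. Of 8 tested targets of the glucocorticoid receptor 3 were higher and 1 lower, and 4 were higher and 4 lower without replicate 2, against the same shares of all tested genes. KLF9, FKBP5 and CEBPD rose by 1.16, 0.47 and 0.41 (log2), and the kinase gene SGK1 fell by 0.78. TSC22D3, ERRFI1 and DUSP1, named after their values were seen, lay above the NC range in replicate 2 and below it in replicates 1 and 3, as PER2, PER3 and NR1D2 did. TSC22D3 measured 3.38, 12.2 and 3.31 FPKM in sh-circRIMS1 against 6.69 to 7.12 FPKM in NC. ERRFI1 measured 28.6, 65.2 and 28.9 FPKM against 45.4 to 46.2 FPKM, and DUSP1 116, 155 and 115 FPKM against 149.7 to 153 FPKM. They did not pass the test over all libraries, and without replicate 2 they were called lower, at -0.95, -0.67 and -0.39 (log2). The other tested genes of that list did not share this arrangement. Replicate 2 differed from the mean of replicates 1 and 3 by -0.19 for FKBP5, -0.26 for CEBPD and -0.37 for GLUL (log2). The difference was 0.05 for SGK1 and 0.55 for KLF9. Of 5 tested genes with cAMP response elements 2 were higher and 1 lower, against 25% and 12.7% of all tested genes. NR4A1 and CREM rose by 0.89 and 0.55 (log2), and the phosphodiesterase gene PDE4D fell by 0.33. NR4A1 averaged 0.733 FPKM in NC and 1.79 FPKM in sh-circRIMS1, so it passed the filter only through its sh-circRIMS1 values. CEBPD was no longer called with NC replicate 2 or 3, or sh-circRIMS1 replicate 1 or 3, left out, nor under median-of-ratios scaling, and the call of FKBP5 was lost under quantile normalization. That of PDE4D was lost without any 1 library other than sh-circRIMS1 replicate 2 and with a replicate block. Without replicate 2, 3 of the 5 genes with cAMP response elements were higher and 1 lower, against 36.8% and 23.9% of all tested genes. Over the 31 genes that the deposited table places in the KEGG circadian rhythm pathway, 25 were tested, with 8 higher and 5 lower and a median change of 0.02, and 9 of 24 higher and 8 lower without replicate 2. The shares of all tested genes were 25% and 12.7%, and 36.8% and 23.9% without replicate 2. Without the clock genes described above, 18 were tested, with 5 higher and 4 lower, and 6 of 17 higher and 5 lower without replicate 2. Leaving PRKAA1, ISG15 and IRF9 aside, 22 genes outside the core clock are named above as called over all libraries. Of these, 21 were called in the same direction without replicate 2, all but PRKAA2. They were named because they were called in the same libraries, and the fit without replicate 2 called more of all genes. The count is thus no separate support for their changes.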

How the data were processed

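RNA sequencing of 6 T24 libraries, 3 NC and 3 sh-circRIMS1, was used, grouped by sample title. Per the labels' protocols, RNA was extracted with TRIzol, depleted of ribosomal RNA, digested with RNase R and made into directional libraries with a KAPA kit. The authors deposited 1 table of FPKM. The tools named per the submitters' processing notes are StringTie, Cufflinks, HTSeq, DESeq, HISAT2 and Trimmomatic, with roles, settings and genome build not given in the sources used here. The knockdown columns carry an si prefix and the titles an sh prefix, and they were matched by circ name and number.

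The log2(FPKM + 0.5) values of genes averaging at least 1 FPKM were tested by limma (version 3.58.1, R 4.3.3) with group as the only term, an intensity trend and two-sided Benjamini-Hochberg adjustment over all 10408 genes at 0.05. This scale understates changes of low genes. A gene averaging below 1 FPKM in NC passed the filter only where it was higher in sh-circRIMS1, and the reverse held for sh-circRIMS1. The filter thus favours calls in that direction among such genes. No count model was used, since FPKM are not counts. The fit was tested on simulated data. PER3 was given an exact two-sided permutation test. Alternatives covered pseudocount, filter, scaling, trend, array weights, a replicate block and each library left out. Array weights are estimated from the same libraries and can count a deviating one less. The labels do not say that replicates were separate cultures, so p-values measure the spread between libraries, which may be technical. Members, lists and motifs were chosen with earlier results of these data known. From each list up to 4 called genes with the smallest p are named, and some genes are not reported here. Lists were described by counts, with no set test.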

Additional observations from a re-analysis of the deposited data

How the results depend on the processing

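NR1D1 and CRY1 were called in the same direction in every alternative that tested them, with log2 changes from 0.79 to 1.13 and from -0.54 to -0.36. The called genes ARNTL, CRY2 and DBP kept their direction throughout. The number of clock genes called higher was 4 and moved to 2 under quantile normalization and to 0 with the filter at 5 FPKM, which left 2 clock genes in the test, and it ran from 2 to 4 when 1 library was left out. The number called lower was 1 and moved to 2 under median-of-ratios scaling and quantile normalization and to 3 with array weights, and it ran from 1 to 4 when 1 library was left out. The median change of the tested clock genes turned from 0.13 to -0.16 with the filter at 5 FPKM and to -0.0800 with array weights, and ran from -0.13 to 0.31 when 1 library was left out.

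Over all genes 2598 were called higher and 1322 lower. The number higher was 1469 with the filter at 5 FPKM, where fewer genes were tested, 1588 under quantile normalization and 3983 with array weights. The number lower was 2429, 2085 and 2424 under median-of-ratios scaling, quantile normalization and array weights. With 1 library left out the ranges were 1630 to 3803 higher and 685 to 2474 lower. Of all calls 66.3% were higher, against 42.4% under median-of-ratios scaling and 43.2% under quantile normalization, which shifted the median of all genes by -0.12 each. Relative to that median the changes of NR1D1, DBP, CRY2, ARNTL and CRY1 were 0.94, 0.56, 0.50, 0.46 and -0.48 as deposited, and 0.95, 0.58, 0.51, 0.47 and -0.48 under median-of-ratios scaling, and 0.90, 0.42, 0.41, 0.38 and -0.41 under quantile normalization.

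Changes that did not pass the test over all libraries turned sign for PER2 (-0.0179 at a pseudocount of 0.1, -0.0820 under median-of-ratios scaling, -0.33 under quantile normalization and -0.40 with array weights, where it was called lower), PER1 (-0.24 under quantile normalization and -0.0800 with array weights) and NR1D2 (-0.0288 under median-of-ratios scaling and -0.15 with array weights). With 1 library left out PER2 ran from -0.46 to 0.29, PER1 from -0.13 to 0.31, NR1D2 from -0.21 to 0.31 and PER3 from -0.20 to 0.46. The cause was not tested. With a replicate block 2142 genes were higher and 996 lower, and the clock genes had 4 higher and 1 lower as before. Deviations of same-numbered libraries from their group means correlated at -0.03, -0.003 and -0.04, so no pairing by number was seen. With 3 libraries per group, and replicate 2 apart from the other sh-circRIMS1 libraries, this check cannot exclude a pairing.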
